A study of Saccharomyces cerevisiae with 12 samples.

Results

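The genes described are 43 genes of peroxisome biogenesis and fatty acid beta-oxidation in budding yeast, *Saccharomyces cerevisiae*. They were chosen by name, as the probe sets whose platform gene symbol is on a fixed list, out of 5444 named genes (5489 probe sets) on the array. Each of the 43 has 1 probe set. A total of 24 are PEX genes, whose products build peroxisomes, and 19 encode beta-oxidation enzymes, transporters, carnitine shuttle proteins and transcription factors. The strain, VTT C-10883, is a CEN.PK derivative that carries the *Scheffersomyces stipitis* genes *XYL1* and *XYL2* (xylose reductase and xylitol dehydrogenase) and overexpresses its own xylulokinase gene *XKS1*, and it is the same strain in every condition. It was grown in anaerobic batch culture on glucose and xylose, which it consumed one after the other, and the medium held ergosterol and Tween 80, an ester of oleic acid, as anaerobic growth factors. Furan aldehydes, HMF at 3.9 g/L with furfural at 1.2 g/L, were added as a pulse either in the glucose or in the xylose consumption phase. The 12 arrays fall into 4 conditions of 3 replicates, namely the xylose pulse, the xylose control, the glucose pulse and the glucose control. Pulsed cells were sampled 1 hour after the addition, and the methods place 3 individual bioreactors behind each condition.

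Beta-oxidation shortens fatty acids from the carboxyl end, and in yeast it takes place only in peroxisomes. Fatty acids enter as coenzyme A esters through an ABC transporter or are activated inside, and the acetyl units leave by the carnitine shuttle or the glyoxylate cycle. The organelle imports its enzymes folded, by receptors that read a C-terminal or an N-terminal targeting signal and that are afterwards pulled back out with ubiquitin and an ATPase. In yeast the enzyme genes are known to be repressed by glucose and induced by oleate, through the factors Oaf1 and Pip2 together with Adr1, and the first oxidation step uses oxygen.

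All values are log2 expression by RMA, a method that corrects background, sets all arrays to the same distribution and summarizes the probes of each gene, so that a difference of 1 is a 2-fold change relative to the other transcripts. The quartiles of the arrays lay close together, the lower ones between 8.097 and 8.335, but the lower ones separated by condition. They were 8.097 to 8.154 in the xylose control and 8.197 to 8.218 in the xylose pulse. In the glucose control they were 8.243 to 8.288, and in the glucose pulse 8.32 to 8.335. Across probe sets, replicate arrays had Pearson correlations of 0.992 to 0.998. A gene was called at a Benjamini-Hochberg adjusted p under 0.01 in limma, over all 5489 probe sets, with a log2 difference above 1 or below -1. The RNA came from whole cultures, so a change in every cell and a change in the share of cells that express a gene cannot be told apart. The 2 phases differ in sugar, culture age and growth, and the paper pulsed the xylose phase in a separate experiment. Those differences cannot be told apart either. Nor can the pulse be told apart from 1 hour of cultivation, if the controls were drawn just before it. No detection calls were used, so whether values far below the lower quartile of an array lie above background was not tested and the size of a change with such a side is not exact.

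More of these genes were called between the phases than after either pulse, as was so for all probe sets. In the xylose control, 31 of 43 genes (72.1%) were higher than in the glucose control, 2 (4.65%) were lower and 10 did not pass, where the call went up for 27.8% of all probe sets and down for 27.2%, or 54.9% in either direction. All 3 xylose control arrays lay above the glucose controls for 36 genes and below them for 5, against 46.1% and 42.6% of all probe sets. The median log2 difference of the 43 was 1.59, against 0.09 over all probe sets. Genes other than PEX genes had a median of 3.01, with 17 of 19 higher, and PEX genes one of 1.34, with 14 of 24 higher. After both pulses the same comparison (xylose pulse against glucose pulse) called 23 of 43 higher and 3 lower, where 20.8% and 22.9% of all probe sets were called (43.7% in either direction), and the median was 1.01, against -0.07 over all. There the arrays of the xylose pulse lay above those of the glucose pulse for 34 genes and below for 5, against 39.0% and 43.8%.

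**Figure D1:**
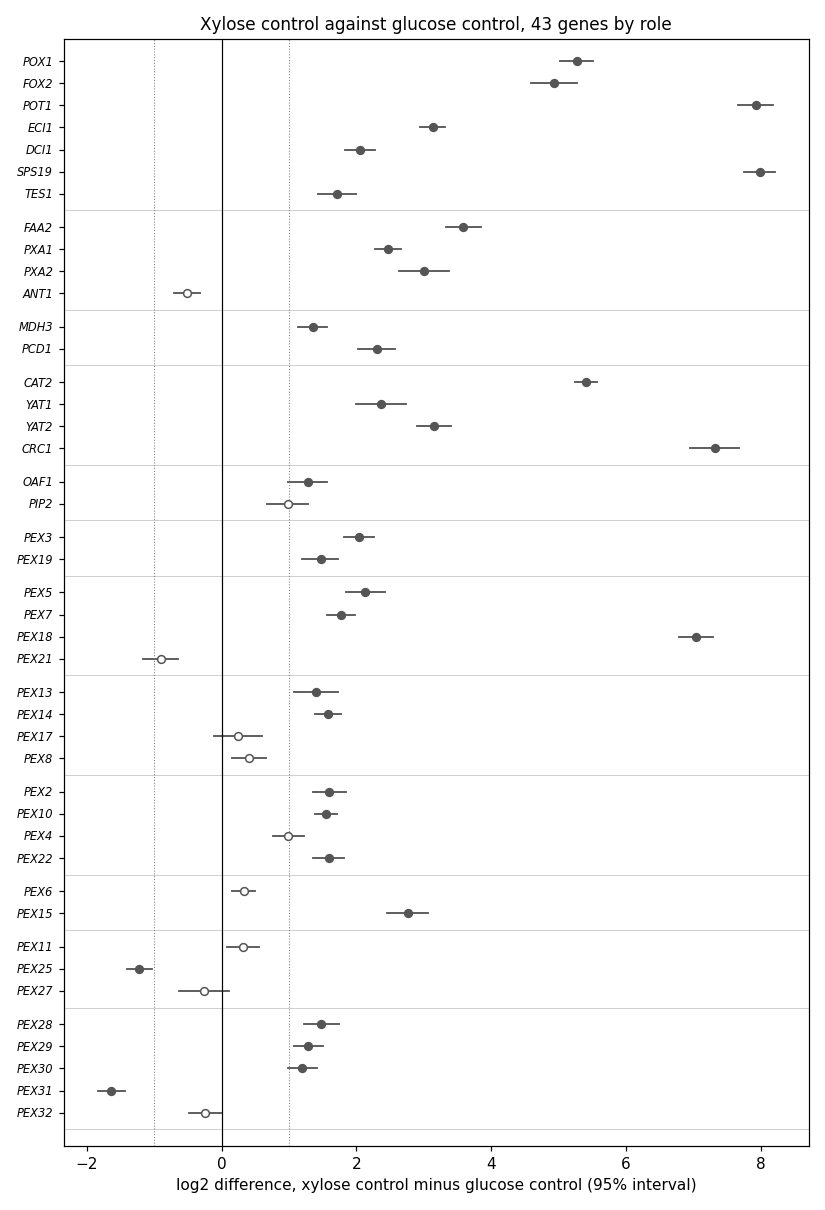
Log2 difference between the xylose control and the glucose control for each of the 43 genes, grouped by role from the beta-oxidation enzymes at the top to PEX28-PEX32 at the bottom. Points are the estimates, bars the 95% intervals from the model over 12 arrays, filled points passed both thresholds, and dotted lines mark -1 and 1. SPS19 (7.99) and POT1 (7.93) lie at the right, and PEX31 (-1.64) and PEX25 (-1.22) lie on the other side.

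The pulse moved fewer of them, as it moved fewer of all probe sets. In the xylose phase 5 of 43 (11.6%) rose and 7 (16.3%) fell, where 11.8% and 8.38% of all probe sets did (20.2% in either direction), and the median was -0.38, against -0.08 over all. Below the fold threshold there were more, since the 3 pulsed arrays lay below all 3 control arrays for 27 of 43 genes (62.8%) and above them for 9 (20.9%), against 40.6% and 33.0% of all probe sets. With no minimum fold, 31 of 43 had an adjusted p under 0.01, where 60.8% of all probe sets did. In the glucose phase 8 of 43 (18.6%) rose and 2 (4.65%) fell, where 11.6% and 9.55% of all probe sets did (21.2% in either direction), with a median of 0.47 against 0.03 over all. There the pulsed arrays lay above the controls for 23 of 43 (53.5%) and below for 7 (16.3%), against 37.3% and 34.1%. With no minimum fold, 28 of 43 had an adjusted p under 0.01 there, where 57.7% of all probe sets did. The difference between both pulse responses, tested as a contrast of its own, was called negative for 20 of 43 genes (46.5%) and positive for 5 (11.6%), with a median of -0.70, where 19.9% and 19.0% of all probe sets were called (38.9% in either direction) and the median was -0.13. The share of genes called positive was below that of all probe sets, and the share called negative above it. These comparisons share arrays (the xylose controls stand in both the phase and the xylose pulse comparison, the glucose controls in both the phase and the glucose pulse comparison), so their values are given side by side and not correlated.

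**Figure D2:**
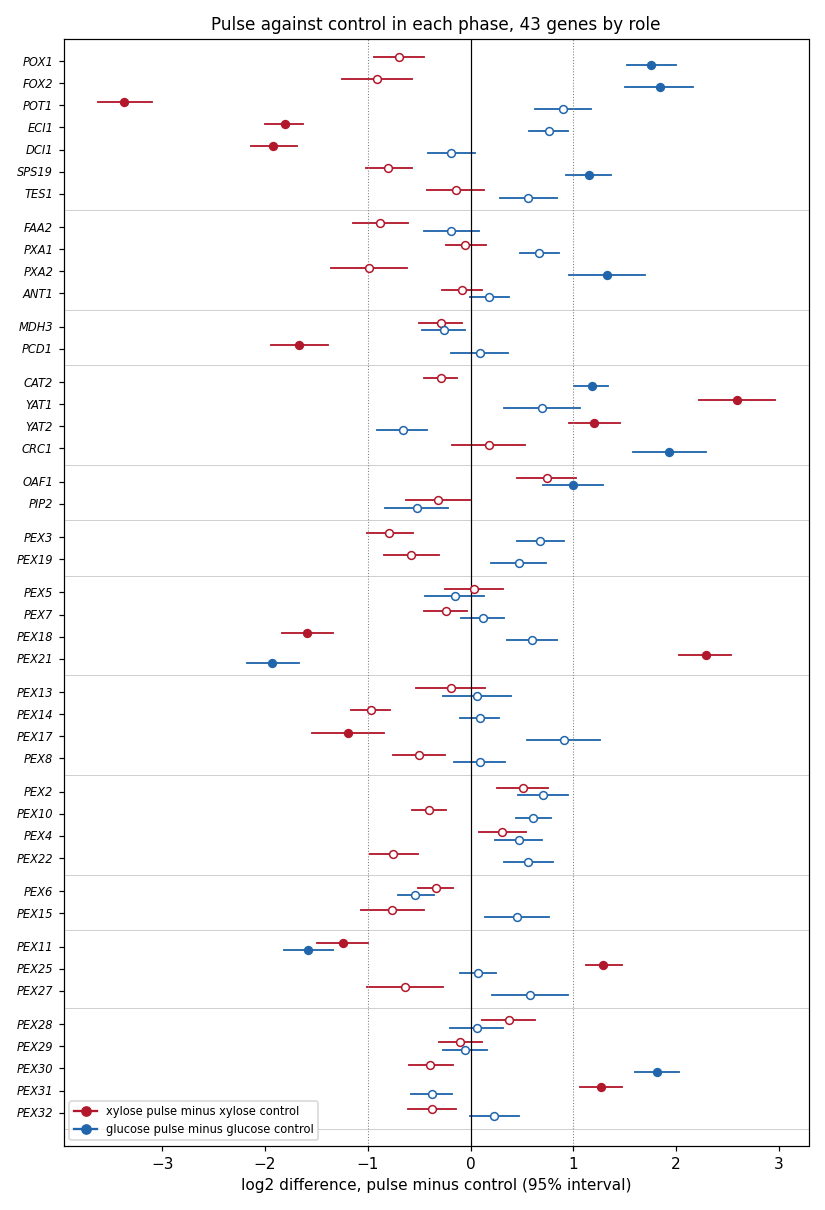
Log2 difference between pulse and control for each of the 43 genes, in the xylose phase (red, upper of each pair) and in the glucose phase (blue, lower). Bars are 95% intervals, filled points passed both thresholds, and dotted lines mark -1 and 1. POT1 lies at -3.37 in the xylose and 0.90 in the glucose phase, and PEX21 at 2.29 and -1.93.

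All 7 genes listed as beta-oxidation enzymes were higher in the xylose control, where 27.8% of all probe sets were. Of these, *POX1*, *FOX2* and *POT1* encode the steps of the spiral, and the others encode auxiliary enzymes and a thioesterase. None of the 7 rose after the pulse in the xylose phase, while 3 fell, where 11.8% of all probe sets rose and 8.38% fell. The 3 were *POT1*, *ECI1* and *DCI1*. In the glucose phase 3 of the 7 rose and none fell, where 11.6% of all probe sets rose and 9.55% fell. Their median log2 difference was 4.94 between the controls, -0.91 for the xylose pulse and 0.90 for the glucose pulse. *POT1* (YIL160C) encodes the ketoacyl-CoA thiolase that releases acetyl-CoA in the last step. Its log2 expression was 6.89, 7.18 and 7.05 in the xylose pulse arrays, against 10.13, 10.55 and 10.54 in the xylose controls. In the glucose phase it was 3.22, 3.50 and 3.43 in the pulse arrays, against 2.53, 2.50 and 2.41 in the controls. The transcript was thus high in the xylose controls, lower on every array after the pulse, and far below the lower quartile in the glucose phase. Its log2 difference was 7.93 between the xylose and the glucose control (standard error 0.12, adjusted p = 8.7e-15), -3.37 for the xylose pulse (standard error 0.12, adjusted p = 2.1e-10) and 0.90 for the glucose pulse (standard error 0.12, adjusted p = 2.5e-05). The last fell short of the fold threshold.

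*SPS19* (YNL202W), a dienoyl-CoA reductase that uses NADPH to prepare unsaturated fatty acids for the spiral, was among the genes with the widest phase difference, as was *POT1*. It measured 12.01, 12.15 and 12.15 in the xylose pulse arrays, against 12.97, 12.86 and 12.87 in the xylose controls. On glucose it measured 5.93, 6.03 and 6.22 in the pulse arrays, against 4.77, 5.11 and 4.85 in the controls. No array of one phase came near those of the other, and the difference between the controls was 7.99 (standard error 0.10, adjusted p = 1.9e-15), a size that rests on glucose values far below the lower quartile. The xylose pulse gave -0.80, short of the fold threshold, and the glucose pulse 1.15 (adjusted p = 5.1e-07). That last call depended on the scaling, since a second quantile normalization of the tested probe sets gave 0.56.

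*POX1* (YGL205W), the acyl-CoA oxidase of the first step, had 8.92, 9.38 and 9.23 in the xylose pulse arrays, against 9.84, 9.88 and 9.90 in the xylose controls. Values in the glucose phase were 6.39, 6.26 and 6.44 in the pulse arrays, against 4.64, 4.47 and 4.70 in the controls. It was 5.27 higher in the xylose than in the glucose control, and the pulse gave -0.70 in the xylose and 1.76 in the glucose phase. The glucose value passed the test (adjusted p = 1.9e-08) and was 1.13 after a second quantile normalization. *FOX2* (YKR009C), the multifunctional hydratase and dehydrogenase of the middle steps, stood at 12.09, 12.36 and 12.36 in the xylose pulse arrays, against 13.05, 13.22 and 13.27 in the xylose controls. It stood at 9.86, 10.14 and 10.22 in the glucose pulse arrays, against 7.88, 8.56 and 8.27 in the glucose controls. Both genes thus rose with the glucose pulse, *FOX2* by 1.84 (standard error 0.16, adjusted p = 3.0e-07), and lay lower on all 3 arrays of the xylose pulse without reaching the threshold there (*FOX2* at -0.91).

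The enoyl-CoA isomerase gene *ECI1* (YLR284C), needed for fatty acids with double bonds, had 8.55, 8.41 and 8.43 in the xylose pulse arrays, against 10.38, 10.28 and 10.17 in the xylose controls. It had 7.95, 7.99 and 7.75 in the glucose pulse arrays, against 7.15, 7.16 and 7.11 in the glucose controls. After the xylose pulse it fell by 1.81 (standard error 0.09, adjusted p = 1.9e-09). Its relative *DCI1* (YOR180C), a dienoyl-CoA isomerase, had 5.82, 5.68 and 5.91 in the xylose pulse arrays, against 7.79, 7.56 and 7.79 in the xylose controls, and fell by 1.92 (adjusted p = 5.0e-09). In the glucose phase *DCI1* had 5.45, 5.53 and 5.44 in the pulse arrays, against 5.78, 5.73 and 5.47 in the controls, which overlapped. Between the 2 pulsed conditions *DCI1* did not pass, with a difference of 0.32 (95% interval 0.10 to 0.55). The acyl-CoA thioesterase gene *TES1* (YJR019C) had a phase difference of 1.71. It measured 9.24, 9.52 and 9.33 in the xylose pulse arrays, against 9.37, 9.58 and 9.56 in the xylose controls, and the groups overlapped. On glucose it measured 8.16, 8.59 and 8.31 in the pulse arrays, against 7.58, 7.91 and 7.88 in the controls, a difference of 0.56 that did not pass. Between the 2 pulsed conditions *TES1* passed narrowly at 1.01, and fell short at 0.99 with arrays centred on medians and at values between 0.91 and 0.98 without glucose pulse replicate 1 or 3 or xylose pulse replicate 2.

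**Figure D3:**
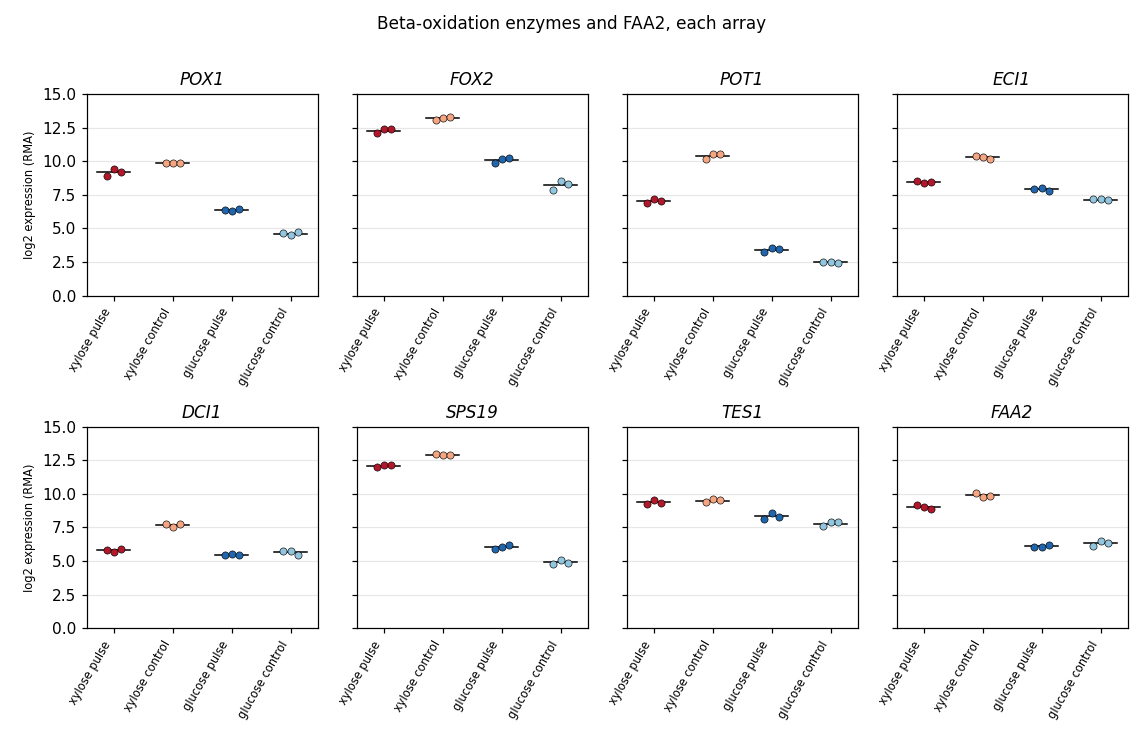
Log2 expression of the 7 beta-oxidation enzyme genes and of FAA2 on each of the 12 arrays. Each point is 1 array and each bar the mean of 3, with the xylose pulse, xylose control, glucose pulse and glucose control from left to right. POT1 averages 7.04 in the xylose pulse and 10.41 in the xylose control, and 3.38 in the glucose pulse and 2.48 in the glucose control.

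Of the 4 genes for the entry of fatty acids and cofactors, 3 were higher in the xylose control, where 27.8% of all probe sets were. *FAA2* (YER015W), the acyl-CoA synthetase inside the peroxisome, had 9.19, 9.02 and 8.86 in the xylose pulse arrays, against 10.10, 9.74 and 9.85 in the xylose controls. It had 6.06, 6.08 and 6.23 in the glucose pulse arrays, against 6.12, 6.47 and 6.33 in the glucose controls, which overlapped. The difference between the controls was 3.59 (adjusted p = 6.0e-12), and that of the xylose pulse, -0.88, did not reach the fold threshold. *PXA1* and *PXA2* (YPL147W and YKL188C) encode both subunits of the ABC transporter for long-chain acyl-CoA. *PXA1* measured 10.46, 10.29 and 10.34 in the xylose pulse arrays, against 10.41, 10.37 and 10.46 in the xylose controls. The glucose phase values of *PXA1* were 8.77, 8.57 and 8.49 in the pulse arrays, against 8.02, 7.86 and 7.94 in the controls. It passed only between the phases, at 2.47 for the controls and 1.75 for the pulses. *PXA2* measured 7.87, 7.98 and 7.95 in the xylose pulse arrays, against 8.81, 8.94 and 9.01 in the xylose controls. The glucose phase values of *PXA2* were 7.31, 7.31 and 7.11 in the pulse arrays, against 5.41, 6.28 and 6.05 in the controls, of which replicate 1 was the lowest. *PXA2* rose by 1.33 with the glucose pulse (standard error 0.17, adjusted p = 1.4e-05), while its xylose pulse difference of -0.99 lay at the threshold and passed it, at values between -1.0 and -1.05, without xylose control replicate 1, xylose pulse replicate 2 or xylose pulse replicate 3. *ANT1* (YPR128C), the adenine nucleotide carrier that supplies ATP for activation, passed in no comparison, with means of 8.85 in the xylose pulse, 8.94 in the xylose control, 9.62 in the glucose pulse and 9.45 in the glucose control.

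Peroxisomal malate dehydrogenase, encoded by *MDH3* (YDL078C), reoxidizes the NADH of beta-oxidation. The gene had 12.80, 12.66 and 12.64 in the xylose pulse arrays, against 13.12, 12.93 and 12.93 in the xylose controls, and 11.55, 11.31 and 11.30 in the glucose pulse arrays, against 11.76, 11.58 and 11.59 in the glucose controls. It was 1.35 higher in the xylose than in the glucose control, and neither pulse moved it past the threshold (-0.29 and -0.26, with a difference between these of -0.03, 95% interval -0.33 to 0.26). *PCD1* (YLR151C), a Nudix hydrolase of coenzyme A, had 9.43, 9.25 and 9.19 in the xylose pulse arrays, against 11.19, 10.78 and 10.90 in the xylose controls. Glucose phase values were 8.80, 8.76 and 8.66 in the pulse arrays, against 8.87, 8.67 and 8.42 in the controls. Thus *PCD1* fell by 1.67 after the xylose pulse (standard error 0.13, adjusted p = 1.3e-07), and its groups overlapped in the glucose phase.

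The carnitine shuttle carries acetyl units from the peroxisome and cytosol into mitochondria, and its 4 genes had a median log2 difference of 4.28 between the controls. After the xylose pulse 2 of the 4 rose and none fell, and after the glucose pulse the other 2 rose. Of all probe sets, 11.8% rose and 8.38% fell with the xylose pulse, and 11.6% and 9.55% with the glucose pulse. *YAT1* (YAR035W), the carnitine acetyltransferase of the mitochondrial surface, had 11.04, 11.67 and 11.50 in the xylose pulse arrays, against 8.65, 8.98 and 8.82 in the xylose controls. It had 6.83, 7.34 and 7.28 in the glucose pulse arrays, against 6.29, 6.43 and 6.62 in the glucose controls. It rose by 2.59 with the xylose pulse (standard error 0.17, adjusted p = 3.3e-08), and the glucose pulse gave 0.70, short of the threshold. *YAT2* (YER024W), the cytosolic carnitine acetyltransferase, had 11.01, 11.12 and 11.04 in the xylose pulse arrays, against 9.76, 10.02 and 9.78 in the xylose controls. On glucose *YAT2* had 6.01, 6.28 and 5.83 in the pulse arrays, against 6.61, 6.72 and 6.79 in the controls. It rose by 1.20 with the xylose pulse (adjusted p = 9.5e-07), and in the glucose phase the pulsed arrays lay below the controls at a difference of -0.66, which did not reach the threshold.

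*CAT2* (YML042W) makes the carnitine acetyltransferase of peroxisomes and the mitochondrial matrix. It measured 12.51, 12.46 and 12.40 in the xylose pulse arrays, against 12.74, 12.71 and 12.79 in the xylose controls. On glucose it measured 8.56, 8.43 and 8.55 in the pulse arrays, against 7.25, 7.38 and 7.38 in the controls. *CAT2* rose by 1.18 with the glucose pulse (standard error 0.08, adjusted p = 2.0e-08) and had -0.29 with the xylose pulse. *CRC1* (YOR100C), the carrier that takes acetylcarnitine across the inner mitochondrial membrane, had 9.10, 9.75 and 9.95 in the xylose pulse arrays, against 9.27, 9.51 and 9.50 in the xylose controls. On glucose *CRC1* had 4.05, 3.99 and 4.09 in the pulse arrays, against 2.14, 2.10 and 2.08 in the controls, among the dimmest values here. The phase difference was 7.32 (adjusted p = 1.7e-13). It rose by 1.93 with the glucose pulse (adjusted p = 3.2e-07), and the xylose pulse arrays overlapped the controls at 0.18 (95% interval -0.18 to 0.53), with pulse replicate 1 the lowest and replicate 3 the highest of the 6. The contrast between the pulse responses was positive for *YAT1* (1.89) and *YAT2* (1.87) and negative for *CAT2* (-1.46) and *CRC1* (-1.76), and all 4 passed.

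**Figure D4:**
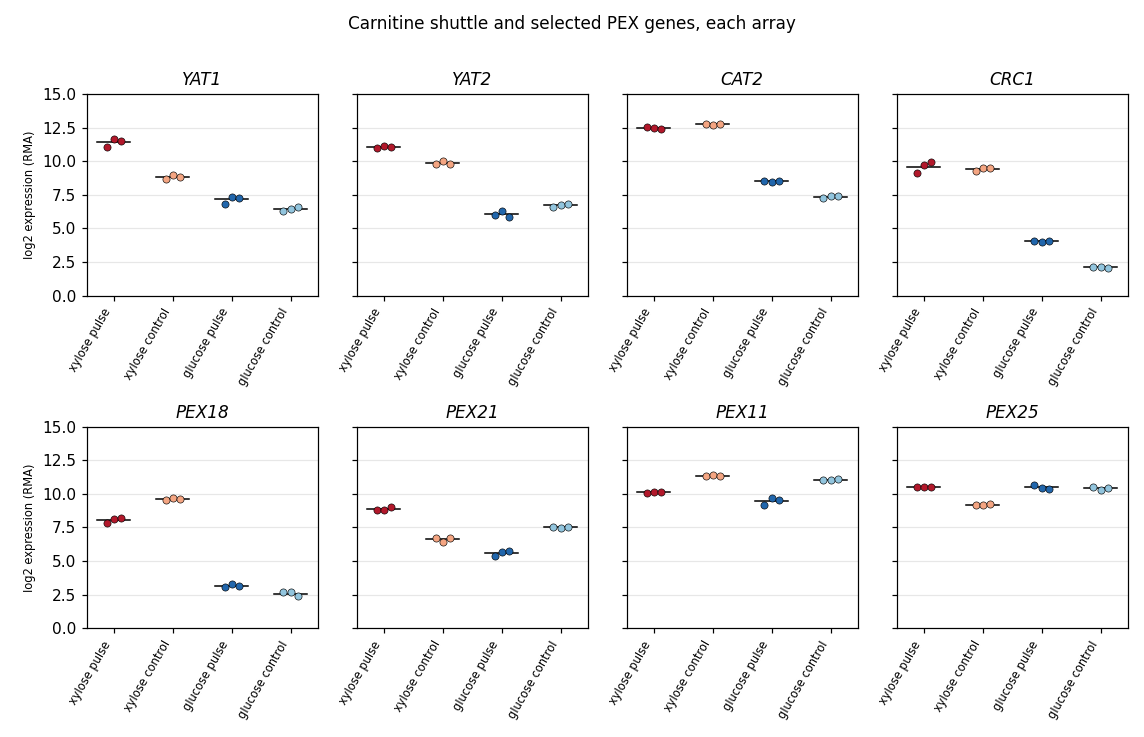
Log2 expression of the 4 carnitine shuttle genes and of PEX18, PEX21, PEX11 and PEX25 on each of the 12 arrays, drawn as for the beta-oxidation enzymes. YAT1 averages 11.41 in the xylose pulse and 8.82 in the xylose control, and PEX18 lies at 3.32 or below on every glucose array.

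Oaf1 and Pip2 are zinc cluster factors that bind the oleate response element as a pair. *OAF1* (YAL051W) had 9.82, 10.06 and 10.21 in the xylose pulse arrays, against 9.06, 9.45 and 9.36 in the xylose controls. It had 9.0, 9.03 and 9.01 in the glucose pulse arrays, against 7.77, 8.20 and 8.07 in the glucose controls. *OAF1* was higher in the xylose control by 1.28 (adjusted p = 7.3e-07) and rose with the glucose pulse by 1.0 (standard error 0.13, adjusted p = 2.0e-05). That call lay at the threshold and was lost at 0.99 with arrays centred on medians, at 0.88 without glucose control replicate 1 and at 0.99 without glucose pulse replicate 2. *PIP2* (YOR363C) had 8.31, 8.86 and 8.88 in the xylose pulse arrays, against 9.0, 8.97 and 9.05 in the xylose controls. On glucose *PIP2* had 7.45, 7.46 and 7.58 in the pulse arrays, against 7.85, 8.23 and 7.97 in the controls. Neither pulse moved it past the threshold (-0.32 in the xylose and -0.52 in the glucose phase), and between the controls it had 0.99, just short of it. Between the pulsed conditions *PIP2* passed at 1.19 and *OAF1* narrowly at 1.01, where the *OAF1* call was lost with arrays centred on medians and without xylose pulse replicate 2 or 3 (0.92 without replicate 3). The contrast between the pulse responses was -0.26 for *OAF1* (95% interval -0.67 to 0.14) and 0.20 for *PIP2* (95% interval -0.23 to 0.64), neither of which passed.

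Among the PEX genes, those for the insertion of membrane proteins were both higher in the xylose control, where 27.8% of all probe sets were. Pex3 is the membrane anchor and Pex19 the soluble chaperone and receptor of that pathway. *PEX3* (YDR329C) measured 10.46, 10.50 and 10.57 in the xylose pulse arrays, against 11.23, 11.31 and 11.35 in the xylose controls. The glucose phase values of *PEX3* were 9.83, 10.05 and 9.90 in the pulse arrays, against 9.06, 9.21 and 9.48 in the controls. *PEX19* (YDL065C) measured 11.50, 11.35 and 11.38 in the xylose pulse arrays, against 12.13, 11.95 and 11.88 in the xylose controls, and 11.18, 10.82 and 10.96 in the glucose pulse arrays, against 10.71, 10.28 and 10.57 in the glucose controls. Both lay above the controls on all glucose pulse arrays and below them on all xylose pulse arrays, with no single pulse comparison past the fold threshold. Of all probe sets, 37.3% lay above in the glucose phase and 40.6% below in the xylose phase. The contrast between the responses passed for both, at -1.46 for *PEX3* and -1.04 for *PEX19*. The *PEX19* call was narrow and was lost at values between -0.92 and -0.97 without glucose control replicate 2, glucose pulse replicate 1 or xylose control replicate 1.

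Of the 4 genes for import receptors and coreceptors, 3 were higher in the xylose control, where 27.8% of all probe sets were. *PEX5* (YDR244W) encodes the receptor for the C-terminal targeting signal that most matrix enzymes carry. It had 11.63, 11.51 and 11.51 in the xylose pulse arrays, against 11.64, 11.42 and 11.49 in the xylose controls, and 9.46, 9.17 and 9.06 in the glucose pulse arrays, against 9.61, 9.11 and 9.43 in the glucose controls. *PEX7* (YDR142C) encodes the receptor for the N-terminal signal, which the thiolase Pot1 carries. It had 10.21, 10.58 and 10.44 in the xylose pulse arrays, against 10.70, 10.65 and 10.58 in the xylose controls, and 9.04, 9.03 and 8.90 in the glucose pulse arrays, against 8.81, 8.86 and 8.95 in the glucose controls. Both were higher in the xylose control (2.13 and 1.77) and neither passed after a pulse, with differences of 0.03 and -0.24 in the xylose phase and -0.15 and 0.12 in the glucose phase.

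Pex18 and Pex21 are partly redundant coreceptors that work with Pex7, and after the xylose pulse their genes moved in opposite directions. *PEX18* (YHR160C) had 7.81, 8.11 and 8.18 in the xylose pulse arrays, against 9.55, 9.66 and 9.65 in the xylose controls. It had 3.07, 3.32 and 3.13 in the glucose pulse arrays, against 2.67, 2.68 and 2.39 in the glucose controls, all far below the lower quartile. The difference between the controls was 7.04 (standard error 0.11, adjusted p = 1.2e-14), and the gene fell by 1.59 with the xylose pulse (standard error 0.11, adjusted p = 7.4e-08). *PEX21* (YGR239C) had 8.81, 8.82 and 9.05 in the xylose pulse arrays, against 6.72, 6.43 and 6.68 in the xylose controls. It had 5.34, 5.68 and 5.75 in the glucose pulse arrays, against 7.51, 7.47 and 7.56 in the glucose controls. *PEX21* thus rose by 2.29 with the xylose pulse (standard error 0.12, adjusted p = 3.8e-09) and fell by 1.93 with the glucose pulse (standard error 0.12, adjusted p = 1.4e-08). *PEX18* had 0.60 with the glucose pulse, short of the fold threshold. The contrast between the responses was 4.21 for *PEX21* (standard error 0.17, adjusted p = 3.7e-10) and -2.19 for *PEX18* (adjusted p = 7.3e-08). Between the controls *PEX21* was lower on all xylose arrays at a difference of -0.90, which did not reach the threshold.

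In the docking complex, *PEX13* and *PEX14* (YLR191W and YGL153W), which receive the loaded receptors at the membrane, were higher in the xylose control at 1.40 and 1.58. *PEX13* had 10.86, 10.55 and 10.38 in the xylose pulse arrays, against 10.90, 10.77 and 10.69 in the xylose controls, and 9.68, 9.27 and 9.40 in the glucose pulse arrays, against 9.69, 9.21 and 9.27 in the glucose controls. Its groups overlapped in both phases. *PEX14* had 10.58, 10.48 and 10.35 in the xylose pulse arrays, against 11.47, 11.42 and 11.44 in the xylose controls, and 9.81, 10.06 and 9.98 in the glucose pulse arrays, against 9.83, 9.82 and 9.93 in the glucose controls. The xylose pulse gave -0.97 for *PEX14*, short of the threshold by a little (-1.03 without xylose pulse replicate 1), and the contrast between the responses passed at -1.06 but not without xylose pulse replicate 3 (-1.0). *PEX17* (YNL214W), a partner of Pex14, did not pass between the controls. It had 6.25, 6.51 and 7.02 in the xylose pulse arrays, against 7.85, 7.58 and 7.92 in the xylose controls, and 8.42, 8.49 and 8.41 in the glucose pulse arrays, against 7.53, 7.69 and 7.39 in the glucose controls. *PEX17* fell by 1.19 with the xylose pulse (adjusted p = 2.6e-05), had 0.91 with the glucose pulse and differed between the responses by -2.10 (adjusted p = 2.9e-06). It was lower in the xylose than in the glucose pulse arrays, at -1.85 (adjusted p = 1.7e-07). *PEX8* (YGR077C), whose product links the docking complex to the ubiquitin ligases, passed in no comparison, with differences between -0.59 and 0.41.

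Receptors leave the membrane after ubiquitination by Pex4, which Pex22 anchors, and by RING finger ligases that include Pex2 and Pex10. All 4 genes lay above the controls on all glucose pulse arrays, between 0.47 for *PEX4* and 0.71 for *PEX2*, and none reached the fold threshold. Of all probe sets, 37.3% lay above the controls in this way. *PEX2* (YJL210W) had 10.64, 11.08 and 11.09 in the xylose pulse arrays, against 10.44, 10.41 and 10.46 in the xylose controls, and 9.50, 9.48 and 9.66 in the glucose pulse arrays, against 8.90, 8.88 and 8.74 in the glucose controls. *PEX10* (YDR265W) had 10.21, 10.06 and 10.10 in the xylose pulse arrays, against 10.53, 10.56 and 10.48 in the xylose controls, and 9.63, 9.48 and 9.62 in the glucose pulse arrays, against 8.92, 9.01 and 8.98 in the glucose controls. The xylose pulse arrays lay above the controls for *PEX2* (0.51) and below them for *PEX10* (-0.40), without passing. *PEX22* (YAL055W) had 8.14, 8.46 and 8.54 in the xylose pulse arrays, against 9.05, 9.25 and 9.08 in the xylose controls, and 8.0, 8.23 and 8.06 in the glucose pulse arrays, against 7.58, 7.51 and 7.52 in the glucose controls. Between the controls *PEX2*, *PEX10* and *PEX22* were higher in xylose by 1.59, 1.55 and 1.59, and *PEX4* (YGR133W) fell just short at 0.99. The contrast between the responses passed for *PEX22* (-1.31) and, at the threshold, for *PEX10* (-1.01). The *PEX10* call was lost, at values between -0.98 and -1.0, without glucose control replicate 1, glucose pulse replicate 1 or 3, or xylose control or pulse replicate 2.

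The ATPase Pex6 pulls receptors out of the membrane and is held there by Pex15. *PEX15* (YOL044W) measured 9.85, 10.02 and 10.23 in the xylose pulse arrays, against 10.64, 10.81 and 10.93 in the xylose controls, and 8.36, 8.52 and 8.56 in the glucose pulse arrays, against 7.69, 8.17 and 8.23 in the glucose controls. With 2.76 between the controls (adjusted p = 4.7e-10), it had the second largest phase difference among the PEX genes, after *PEX18*. *PEX6* (YNL329C) passed in no comparison, at 0.33 between the controls, -0.34 for the xylose pulse and -0.54 for the glucose pulse.

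Pex11 promotes the elongation and division of peroxisomes, and its gene fell with both pulses. *PEX11* (YOL147C) had 10.07, 10.13 and 10.16 in the xylose pulse arrays, against 11.32, 11.43 and 11.34 in the xylose controls. It had 9.18, 9.71 and 9.51 in the glucose pulse arrays, against 11.04, 11.02 and 11.09 in the glucose controls. The log2 difference was -1.24 in the xylose phase (standard error 0.11, adjusted p = 5.5e-07) and -1.58 in the glucose phase (standard error 0.11, adjusted p = 5.0e-08). *PEX11* was the one gene of the 43 called in the same direction after both pulses. The contrast between both was 0.34 (95% interval 0.00 to 0.68) and did not pass, nor did the phase difference of 0.32. *PEX25* and *PEX27* (YPL112C and YOR193W) encode relatives of Pex11. *PEX25* had 10.50, 10.49 and 10.48 in the xylose pulse arrays, against 9.17, 9.18 and 9.23 in the xylose controls, and 10.63, 10.46 and 10.38 in the glucose pulse arrays, against 10.49, 10.32 and 10.43 in the glucose controls. It was lower in the xylose control (log2 difference -1.22, adjusted p = 6.5e-09) and rose by 1.29 with the xylose pulse (adjusted p = 2.1e-08), to a level with a difference of 0.00 from the glucose pulse (95% interval -0.18 to 0.17). *PEX27* had 8.91, 8.46 and 8.35 in the xylose pulse arrays, against 9.47, 9.16 and 9.03 in the xylose controls, and 10.28, 9.90 and 10.00 in the glucose pulse arrays, against 9.77, 9.37 and 9.32 in the glucose controls. It passed only in the contrast between the responses (-1.22) and between the pulsed conditions (-1.48).

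Pex28 to Pex32 set the size, number and distribution of peroxisomes, and Pex30 and Pex31 act from the endoplasmic reticulum. *PEX30* (YLR324W) had 11.08, 10.91 and 10.86 in the xylose pulse arrays, against 11.51, 11.23 and 11.27 in the xylose controls. It had 12.12, 11.88 and 11.88 in the glucose pulse arrays, against 10.13, 10.15 and 10.16 in the glucose controls. *PEX30* rose by 1.81 with the glucose pulse (standard error 0.10, adjusted p = 4.8e-09), the one PEX gene to do so, and had -0.39 with the xylose pulse. It was lower in the xylose than in the glucose pulse arrays (-1.01), a call lost at values between -0.93 and -0.99 without glucose pulse replicate 1 or xylose pulse replicate 2 or 3. *PEX31* (YGR004W) had 9.15, 9.13 and 9.31 in the xylose pulse arrays, against 7.82, 7.94 and 8.02 in the xylose controls. It had 9.09, 9.34 and 9.13 in the glucose pulse arrays, against 9.55, 9.63 and 9.52 in the glucose controls. Lower in the xylose control (log2 difference -1.64), it rose by 1.27 with the xylose pulse (standard error 0.09, adjusted p = 7.4e-08), and the 2 pulsed conditions overlapped. *PEX28* (YHR150W) had 9.91, 9.96 and 9.78 in the xylose pulse arrays, against 9.44, 9.71 and 9.39 in the xylose controls, and 8.07, 8.15 and 8.05 in the glucose pulse arrays, against 7.77, 8.23 and 8.09 in the glucose controls. *PEX29* (YDR479C) had 11.02, 10.79 and 10.69 in the xylose pulse arrays, against 11.04, 10.91 and 10.83 in the xylose controls, and 9.63, 9.51 and 9.64 in the glucose pulse arrays, against 9.75, 9.61 and 9.59 in the glucose controls. These 2 differed only by phase, at 1.48 and 1.28, with 0.37 and -0.10 for the xylose pulse and 0.06 and -0.05 for the glucose pulse. *PEX32* (YBR168W) passed in no comparison, with differences between -0.86 and 0.23.

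Other genes of the peroxisome were counted on lists of their own. Of all probe sets, 27.8% were called up and 27.2% down between the controls, 11.8% and 8.38% for the xylose pulse, and 11.6% and 9.55% for the glucose pulse, and the counts on these lists are read against these shares. Of 12 further peroxisomal enzymes, 7 were higher and 1 lower in the xylose control, with a median of 1.26. They include the catalase gene *CTA1* at 6.87 and *IDP3*, the isocitrate dehydrogenase that supplies NADPH inside the organelle, at 5.77. After the xylose pulse 2 (16.7%) fell and 1 (8.33%) rose. *IDP3* had 8.69, 8.52 and 8.66 in the xylose pulse arrays, against 10.27, 10.39 and 10.47 in the xylose controls, a log2 difference of -1.75 (adjusted p = 2.7e-06). *CTA1* fell by 1.02, and *STR3*, a peroxisomal cystathionine lyase, rose by 1.23. After the glucose pulse 3 rose and none fell, with a median of 0.14. The 3 were *GTO1*, a glutathione transferase, at 2.55, the nicotinamidase gene *PNC1* at 1.46 and *CTA1* at 1.32. The pulsed arrays lay above the controls for 4 of the 12 and below for 5, against 37.3% and 34.1% of all probe sets.

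Of 9 measured genes of peroxisome division, inheritance and turnover, 4 were higher and 1 lower in the xylose control. *ATG36*, the receptor for the breakdown of peroxisomes by autophagy, had 10.35, 10.35 and 10.32 in the xylose pulse arrays, against 11.71, 11.91 and 11.85 in the xylose controls. It had 8.04, 7.82 and 8.08 in the glucose pulse arrays, against 7.17, 7.65 and 7.12 in the glucose controls. The difference between the controls was 4.51 (adjusted p = 1.1e-12), and after the xylose pulse it fell by 1.48 (adjusted p = 3.6e-07). *INP1*, which retains peroxisomes in the mother cell, also fell there (log2 difference -1.5), and these were the only 2 of the 9 that passed. After the glucose pulse the fission gene *FIS1* rose by 1.11 and no other gene of the 9 passed.

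Of 8 further genes listed as regulators of the oleate response, 3 were higher in the xylose control and 1 lower. The 3 were *ADR1*, *CAT8* and *SIP4*, and the 1 lower was *OAF3*. *OAF3* averaged 8.18 in the xylose control and 9.39 in the glucose control, a log2 difference of -1.21 (adjusted p = 3.8e-06). It passed after neither pulse, at 0.26 in the xylose and -0.09 in the glucose phase. *ADR1*, the factor that acts beside Oaf1 and Pip2, had 11.20, 11.18 and 11.21 in the xylose pulse arrays, against 10.97, 10.94 and 10.79 in the xylose controls. It had 7.01, 7.13 and 6.73 in the glucose pulse arrays, against 4.14, 3.59 and 3.91 in the glucose controls. The log2 difference was 7.02 between the controls (adjusted p = 4.1e-14), 3.08 for the glucose pulse (adjusted p = 5.4e-10) and 0.30 for the xylose pulse, which did not pass. The genes of the gluconeogenic factors Cat8 and Sip4 had 7.25 and 4.03 between the controls. Both rose with the glucose pulse, by 1.46 and 1.86, and with the xylose pulse *SIP4* rose by 2.31 while *CAT8* had 0.18.

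Fatty acid activation and uptake outside the peroxisome, a list of 5, had 2 genes higher in the xylose control. *FAA1*, a synthetase for imported long-chain fatty acids, had 13.47, 13.45 and 13.45 in the xylose pulse arrays, against 12.36, 12.38 and 12.39 in the xylose controls. It had 12.33, 12.21 and 12.18 in the glucose pulse arrays, against 8.28, 8.86 and 9.12 in the glucose controls. *FAA1* rose with both pulses, by 1.08 in the xylose and 3.49 in the glucose phase, and the contrast between these was -2.41 (adjusted p = 5.5e-07). *FAA3*, a synthetase gene of the same family, fell by 1.10 with the xylose pulse (adjusted p = 8.1e-08). *AGP2*, which takes up carnitine, had 5.39 between the controls.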

How the data were processed

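RNA of 12 samples was hybridized to Affymetrix Yeast Genome 2.0 arrays. The paper describes sampling right before and 1 hour after the pulse, and also a control experiment without inhibitors. Control and pulsed arrays may therefore share bioreactors, which would make fewer than 12 cultures. The authors normalized the arrays together by RMA and deposited log2 values, 1 per probe set, with no detection calls. Of 5705 probe sets in the table, 5489 carried 1 gene symbol in the platform annotation and 216 had none, and 12 symbols were updated. Groups came from the sample labels. Group means of all 12 arrays were fitted with limma 3.58.1 (lmFit, eBayes) in R 4.3.3, without a block, and p-values were adjusted by Benjamini-Hochberg over the 5489 probe sets. The 5 comparisons were the pulse in each phase, the difference between these responses, and the phases with and without the pulse. Thresholds followed the study's methods. The script was tested on simulated data. Values on every array are given for the 38 genes called in at least 1 comparison. From the 6 other gene lists, genes were named from the 4 with the smallest adjusted p per comparison, and *ICL1* and *OAF3* were named besides. The 43 genes and all lists were chosen with earlier results of these data known. Replicate numbers were tried as pairing pulse and control within a phase. Deviations of same-numbered arrays from their group means correlated at r = 0.474, 0.381 and 0.145 for glucose and 0.569, 0.299 and 0.305 for xylose. Across the phases they correlated as well, at r = 0.419, 0.237 and 0.069 for the controls and 0.599, 0.201 and 0.395 for the pulses. Some arrays with different numbers also correlated, such as glucose pulse 3 with glucose control 2 at r = 0.285. Whether these values reflect shared bioreactors was not tested. Alternatives were a replicate block, a second quantile normalization, median centring, filters on probe sets, other variance settings and leaving out each array. Sequences were not used here.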

Additional observations from a re-analysis of the deposited data

Results flagged for a closer look

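The response to the pulse differed between the phases for 25 of the 43 genes, by a contrast in limma of the xylose phase response minus the glucose phase response, where 38.9% of all probe sets were called. It was negative for 20 genes, where 19.9% of all probe sets were. For beta-oxidation these were *POT1* at -4.27, *FOX2* at -2.75, *ECI1* at -2.57, *POX1* at -2.46, *SPS19* at -1.95 and *DCI1* at -1.73. For transport, coenzyme A and carnitine they were *PXA2* at -2.32, *CRC1* at -1.76, *PCD1* at -1.75 and *CAT2* at -1.46. Among PEX genes they were *PEX30* at -2.20, *PEX18* at -2.19, *PEX17* at -2.10, *PEX3* at -1.46, *PEX22* at -1.31, *PEX27* at -1.22, *PEX15* at -1.21, *PEX14* at -1.06, *PEX19* at -1.04 and *PEX10* at -1.01. It was positive for 5 genes, where 19.0% of all probe sets were, namely *PEX21* at 4.21, *YAT1* at 1.89, *YAT2* at 1.87, *PEX31* at 1.65 and *PEX25* at 1.22. Of these, *PEX21* was the one gene called in opposite directions by the 2 pulses, at 2.29 in the xylose and -1.93 in the glucose phase.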

How the results depend on the processing

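Of 106 called results of the 43 genes (over 5 comparisons), 8 lost the call under at least 1 of 21 alternatives, and none changed direction. The 8 are *SPS19* and *OAF1* for the glucose pulse, *PEX10*, *PEX14* and *PEX19* for the contrast between responses, and *OAF1*, *TES1* and *PEX30* between the pulsed conditions. A second quantile normalization of the tested probe sets moved *POX1* to 1.13 and *SPS19* to 0.56 for the glucose pulse, and the cause was not tested. With the lowest 25% of probe sets left out, 31 of the 43 genes remained. Of these, 6 were called for the glucose pulse, 7 for the xylose pulse and 16 for the contrast between responses. Between the controls 25 were called, and between the pulsed conditions 18. No call of a remaining gene changed, so these counts are lower because genes were removed. The shares called among all probe sets kept were not counted, so these counts are not read as results about the genes. With no minimum fold, 28 were called for the glucose and 31 for the xylose pulse, where 57.7% and 60.8% of all probe sets were. Leaving out 1 array gave 9 to 10 calls for the glucose pulse, 12 to 13 for the xylose pulse, 23 to 25 for the contrast, 33 to 35 between the controls and 23 to 26 between the pulsed conditions. With the replicate number as a block, for the pairing described in the methods, the counts were 10, 12, 25, 33 and 26 in the same order, and no call changed. With 3 arrays in each condition the precision is limited by their number, and glucose values far below the lower quartile, among them those of *POT1*, *CRC1*, *PEX18*, *SPS19* and *POX1*, make fold changes inexact. The same limit holds for *DCI1* in the xylose pulse (mean 5.80), *PEX21* in the glucose pulse (5.59) and *ELO2* in the xylose control (5.44). It also holds for *CAT8* (3.17), *CTA1* (3.23), *MLS1* (3.41) and *ADR1* (3.88) in the glucose control. Other genes with low means there include *SIP4* (4.27), *IDP3* (4.61), *PCK1* (5.86), *AGP2* (5.89) and *PXA2* (5.92).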

Other observations

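The glyoxylate cycle turns the acetyl-CoA from beta-oxidation into precursors of sugars. Of 6 genes of this cycle and of acetyl-CoA use, 5 were higher in the xylose control and 1 did not pass. The median log2 difference was 4.04, and 27.8% of all probe sets were called higher. The 1 that did not pass was *ICL1*, which encodes isocitrate lyase, an enzyme of the cycle itself. It had 7.01, 7.05 and 7.16 in the xylose controls, against 6.40, 6.49 and 6.75 in the glucose controls. The malate synthase gene *MLS1* had 6.54 between the controls and fell by 2.28 with the xylose pulse. It was the one gene of the 6 that passed for that pulse, where 20.2% of all probe sets did. *PCK1*, which encodes the first committed enzyme of gluconeogenesis, rose by 1.40 with the glucose pulse. It was the one of the 6 that passed there, where 21.2% of all probe sets did. The acetyl-CoA synthetase gene *ACS1* had 4.09 between the controls and the cytosolic malate dehydrogenase gene *MDH2* 3.99.

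Of 8 genes of fatty acid synthesis and desaturation, none was higher and 3 were lower in the xylose control, where 27.2% of all probe sets were called lower. All 3 are elongase genes, *ELO2* at -6.02, *ELO3* at -4.30 and *ELO1* at -1.77. With the xylose pulse *ELO1* rose by 1.33 and *HFA1*, the mitochondrial acetyl-CoA carboxylase gene, by 1.23. These were the 2 of the 8 that rose, where 11.8% of all probe sets did. With the glucose pulse none of the 8 passed, where 21.2% of all probe sets did. An adjusted p under 0.01 in limma was found there for 3 of the 8, where 57.7% of all probe sets had one.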
